A study of Mus musculus with 19 samples.

Results

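The mitochondrially encoded genes are the 37 genes of the mouse mitochondrial genome, and they were taken as the entries of the deposited counts whose symbol begins with mt-. All 37 lay on chromosome MT, out of 36682 genes listed with identifiers. There were 13 protein-coding genes, 2 rRNA genes and 22 tRNA genes. All 37 passed the filter on low counts and were among the 22778 genes tested.

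RNA was sequenced from dorsal root ganglia, which hold the cell bodies of the sensory neurons that serve the limbs and trunk. The 19 libraries came from 19 male mice, all homozygous for MaFIA (macrophage Fas-induced apoptosis), a transgene that runs from the Csf1r promoter and makes the cells that carry it die when the drug AP20187 joins its Fas domains. Thus the controls carried the transgene too, and it acts in macrophages and in other myeloid cells that use this promoter. Mice had destabilization of the medial meniscus (DMM), a knee operation used as a model of osteoarthritis, or were naive and of the same age. The ages were not given in the sources used here. Each mouse received AP20187 or vehicle by intraperitoneal injection daily for 5 days, in DMM mice 8 weeks after the operation. Ganglia L3 to L5 of the operated side were pooled per mouse and poly(A) RNA was sequenced from stranded libraries. The groups were DMM with AP20187 (mice 58 to 62, n = 5), DMM with vehicle (mice 32, 33, 34, 63 and 64, n = 5), naive with AP20187 (mice 1, 3, 4 and 5, n = 4) and naive with vehicle (mice 1 to 5, n = 5).

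Mitochondria keep a small circular genome that is copied and transcribed inside the organelle. Its mRNAs all encode subunits of the enzymes of oxidative phosphorylation, and its rRNAs and tRNAs serve the organelle's own ribosomes. Both strands are transcribed into long precursors, and the tRNAs that lie between the other genes mark where these precursors are cut, so the RNA of neighbouring genes begins as 1 molecule. Messenger and ribosomal RNAs then receive short poly(A) tails, while mature tRNAs do not. Most subunits of the same enzymes are encoded in the nucleus. Sensory neurons carry many mitochondria, in the cell body and along their long axons.

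The mitochondrial genes follow each other closely on the genome. The files place the first base of the first gene at position 1 and the last base of the last gene at 15422 of chromosome MT, with 28 genes on the plus strand and 9 on the minus strand. All 37 had the same start, end and strand in GENCODE release M21, in which each has a single exon and no intron. The minus strand holds mt-Nd6 and 8 tRNA genes. mt-Atp8 and mt-Atp6 overlap by 43 bases and mt-Nd4l and mt-Nd4 by 7 bases on the same strand, and each of these pairs stays on a shared mRNA. mt-Nd5 and mt-Nd6 overlap on opposite strands, as do mt-Co1 and mt-Ts1. Whether counting used the strand was not given in the sources used here, so reads in such overlaps cannot be assigned with certainty.

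Of the 13 mRNA genes, 9 begin with ATG, and 10 end in a whole TAA or TAG stop codon. The genes mt-Co3, mt-Nd4 and mt-Cytb end in a single T past the last whole codon, and in mitochondria such a stop is completed by the poly(A) tail. The sequences of 5 genes are shown because their log2 fold changes were among the 6 largest between naive mice with AP20187 and with vehicle, the other being that of mt-Tv. They form 2 runs of neighbours, mt-Tg and mt-Nd3 between mt-Co3 and mt-Tr, and mt-Th, mt-Ts2 and mt-Tl2 between mt-Nd4 and mt-Nd5. The 4 tRNA genes were chosen for display after their values were seen. Sequences are those of the GENCODE M21 transcripts (GRCm38), matched by gene identifier and read 5′ to 3′ on the plus strand, and the positions are those of the files. Capitals mark the anticodon in the tRNA genes, taken as the match whose loop is closed by the best-pairing stem, and the first codon in mt-Nd3, which begins with ATT and directly follows mt-Tg.
mt-Tg (glycine tRNA, MT:9391-9458): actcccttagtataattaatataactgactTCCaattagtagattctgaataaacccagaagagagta
mt-Nd3 (complex I subunit, its first 120 bases, MT:9459-9578): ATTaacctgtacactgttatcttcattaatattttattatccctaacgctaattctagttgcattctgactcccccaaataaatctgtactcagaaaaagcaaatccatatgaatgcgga
mt-Th (histidine tRNA, MT:11546-11612): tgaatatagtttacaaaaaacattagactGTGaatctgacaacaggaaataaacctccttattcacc
mt-Ts2 (serine tRNA, MT:11613-11671): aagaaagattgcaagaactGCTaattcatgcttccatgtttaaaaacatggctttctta
mt-Tl2 (leucine tRNA, MT:11671-11741): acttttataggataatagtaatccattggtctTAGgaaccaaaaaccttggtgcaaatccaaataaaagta

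Several mitochondrial genes have a near-identical stretch in the nucleus, on chromosome 1. The files list 7 pseudogene entries there, between positions 24650616 and 24655278 on the minus strand. The entry for mt-Nd3, Gm28438, had 0 differences from it over 342 aligned bases, and that for mt-Nd4, Gm28439, had 0 over 876 aligned bases. The entries for mt-Nd4l, mt-Co3, mt-Atp6 and mt-Co2 also had 0 differences over their aligned length. The entry for part of mt-Co1, Gm29216, had 1 difference in 483 aligned bases, A1066T, where position 1 is the first base of mt-Co1 and the first letter is that of mt-Co1. Counts of the copy ran close to those of the mitochondrial gene where the alignment leaves out 6 bases or fewer of it: the median ratio of copy to member over the 19 libraries was 0.998 for mt-Nd4l, 0.955 for mt-Nd3, 0.990 for mt-Co3, 1.06 for mt-Atp6 and 0.986 for mt-Co2. It was 0.444 for mt-Nd4 and 0.0401 for mt-Co1, where the copy covers a part. Together the copy entries made up 1.23% to 3.92% of a library. Added to the members, they gave a mean share of 14.6% with AP20187 and 9.03% with vehicle in DMM mice, still without overlap, and of 14.4% and 9.34% in naive mice. The counts of mt-Nd4l, mt-Nd3, mt-Co3, mt-Atp6, mt-Co2 and part of mt-Nd4 are therefore uncertain in size, since reads of these stretches cannot be placed by sequence. mt-Tr, mt-Tg, mt-Atp8, mt-Tk, mt-Td and mt-Ts1 lie between the copied genes on chromosome MT. The chromosome 1 sequence between the entries was not compared with them, so their counts may carry the same limit.

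Libraries held 60984830 to 74691396 counts, of which 3357565 to 9823434 fell in the mitochondrial genes. Per library, 4 to 8 of the 10 genes with the highest counts were mitochondrial. The 95% Wilson interval of a library's share reached at most 0.00878 percentage points to either side. These intervals cover counting error only, since reads lacking molecular identifiers cannot be counted as separate molecules. All 11 sensory neuron markers were detected in every group. Over all genes, 5410 differed between AP20187 and vehicle in DMM mice and 2548 in naive mice.

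The share of counts in mitochondrial genes was higher with AP20187 than with vehicle in DMM mice, without overlap. The shares were 8.89%, 14.8%, 12.6%, 10.003% and 13.02% in mice 58 to 62 with AP20187 (11.8% ± 2.37, SD, n = 5). With vehicle they were 8.56%, 5.12%, 5.92%, 8.07% and 8.59% in mice 32, 33, 34, 63 and 64 (7.25% ± 1.62, SD, n = 5). The lowest mouse with AP20187 stood close above the highest with vehicle, and the ratio of the means was 1.63. In naive mice the shares were 11.7%, 14.8%, 9.38% and 10.1% in mice 1, 3, 4 and 5 with AP20187 (11.5% ± 2.39, SD, n = 4). With vehicle they were 7.36%, 5.08%, 10.03%, 8.99% and 6.28% in mice 1 to 5 (7.55% ± 2.00, SD, n = 5). The naive groups overlapped: 3 of 4 mice with AP20187 lay above every mouse with vehicle, mouse 4 did not, and the ratio of the means was 1.52. DMM and naive mice of the same treatment overlapped, with mean differences of -0.295 points with vehicle and 0.369 points with AP20187. The summed share carries no test here, and the genes were tested one by one.

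**Figure D1:**
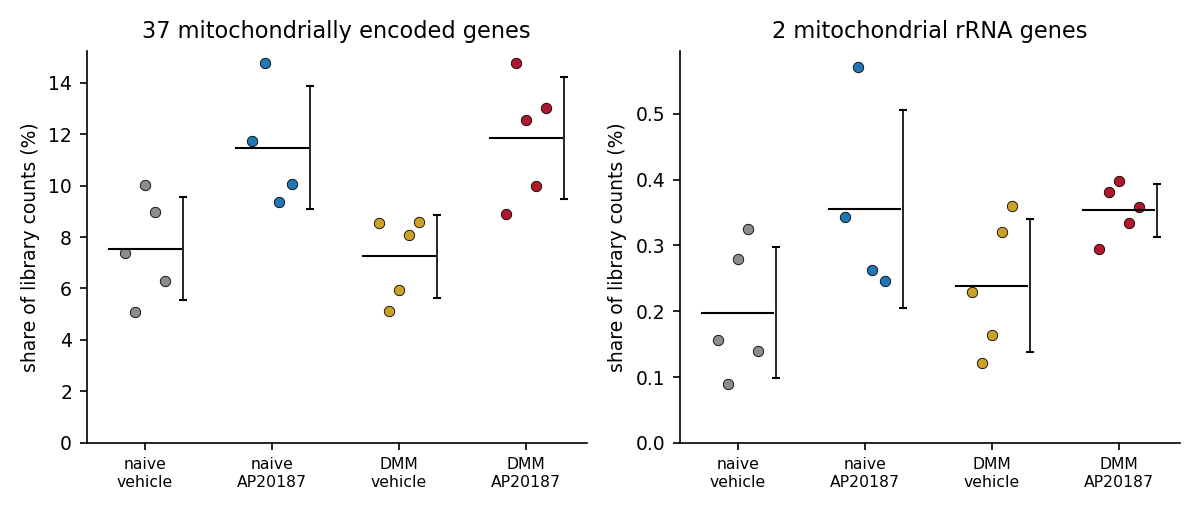
Share of each library's counts (%) in the 37 mitochondrially encoded genes (left) and in the 2 mitochondrial rRNA genes (right), by group. Each point is 1 mouse, the line is the group mean and the bar is the SD. All 5 DMM mice with AP20187 lie above all 5 with vehicle on the left, and the rRNA shares overlap between the groups.

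In these bulk samples, a different number of cells of a type and a different amount of mitochondrial RNA per cell cannot be told apart. Markers of other cells moved with the same comparisons. Of all tested genes, 11.3% were called higher and 12.4% lower in DMM mice, and 8.61% and 2.57% in naive mice. The summed level of 9 granulocyte and precursor markers was 16537 to 28501 CPM (a gene's counts relative to the TMM-scaled library size) in DMM mice with AP20187 and 367 to 7251 CPM with vehicle, and 8 of the 9 genes rose. In naive mice it was 7897 to 27104 CPM against 763 to 2120 CPM, and all 9 rose. The 11 sensory neuron markers summed to 1895 to 8369 CPM in DMM mice with AP20187 and 5850 to 17256 CPM with vehicle, and 8 of the 11 fell. In naive mice they summed to 2713 to 14183 CPM against 9044 to 19946 CPM, and 0 of 11 passed edgeR's test. Of the 11, 1 had an unadjusted p under 0.05, as had 28.8% of all genes. DESeq2 and limma on FPKM each called 1 of the 11 lower, against 4.37% and 11.1% of all genes. Limma with sample weights called 2, where 6.23% of all genes were called lower. The 9 skeletal muscle markers summed to 1931 to 2976 CPM in naive mice with AP20187 and 14.8 to 518 CPM in naive mice with vehicle, of which 3 rose. They summed to 18.8 to 183 CPM in DMM mice with AP20187 and 17.1 to 2219 CPM with vehicle, and 3 fell. Macrophage markers, of the cells the transgene targets, summed to 228 to 968 CPM with AP20187 and 150 to 615 CPM with vehicle in DMM mice. There 1 of 9 rose, near the 11.3% of all genes. In naive mice the macrophage markers summed to 444 to 753 CPM against 81.0 to 448 CPM, and 3 of 9 rose. B lineage markers summed to 2.68 to 8.53 CPM against 9.87 to 144 CPM in DMM mice and 2.67 to 5.34 CPM against 22.5 to 56.8 CPM in naive mice, and 6 of 6 fell in both. Endothelial markers summed to 141 to 259 CPM against 58.9 to 130 CPM in DMM mice, where 2 of 5 rose, and to 188 to 432 CPM against 56.7 to 274 CPM in naive mice, where 1 of 5 rose. Of the other lists, 4 of 6 erythroid, 3 of 8 satellite glia and 3 of 8 myelinating Schwann cell markers fell in DMM mice, and 1 of 8 satellite glia and 3 of 6 central nervous system glia markers fell in naive mice. No marker of these lists was at 0 in every library of a group. Their part in the mitochondrial levels was not tested.

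Levels of different genes were compared per length, as FPKM (fragments per kilobase of gene, scaled to the depth of the library). In naive mice with vehicle, mt-Co1, the catalytic core of cytochrome c oxidase, had 15828 ± 4201 FPKM (SD, n = 5). mt-Atp8, a small subunit of ATP synthase, followed with 11314 ± 3158 FPKM, then mt-Cytb, the cytochrome b of complex III, with 7427 ± 1907 FPKM. The order mt-Co1, mt-Atp8, mt-Cytb held in each of the 19 libraries. As counted on chromosome MT alone, mt-Cytb and mt-Atp6, the proton channel subunit of ATP synthase, did not differ beyond their spread. mt-Cytb was the higher in 3 of these 5 libraries and in 12 of all 19. The same counts held for mt-Nd2 against mt-Nd4l. mt-Nd1 was above mt-Co2 in 5 of the 5 naive libraries with vehicle and in 12 of all 19. Counts given to the chromosome 1 copy are left out of these levels. They were 1.06, 0.998 and 0.986 times those of mt-Atp6, mt-Nd4l and mt-Co2 (medians over the 19 libraries). The places of these genes among the others are therefore uncertain, and the levels of mt-Co3, mt-Nd3 and mt-Nd4 carry the same limit. The rRNAs stood low in these poly(A) libraries, with 808 ± 412 FPKM for mt-Rnr2 and 675 ± 337 FPKM for mt-Rnr1. mt-Nd3 had the lowest level of the mRNAs, 340 ± 90.005 FPKM. Of the tRNA genes, mt-Ts1, mt-Te, mt-Tl1 and mt-Tp had the highest mean CPM, with 834 ± 252 FPKM for mt-Ts1, and mt-Tv had the lowest level, 1.91 ± 1.01 FPKM.

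By class, complex IV mRNAs took 5.54% ± 0.949 of a library in DMM mice with AP20187 against 3.22% ± 0.766 in those given vehicle (SD, n = 5 in both), without overlap. In naive mice they took 5.36% ± 1.23 (SD, n = 4) and 3.25% ± 0.835 (SD, n = 5), and mouse 4 with AP20187 lay at the top of the vehicle range. Complex I took 3.45% ± 0.897 and 2.22% ± 0.450 in DMM mice and 3.44% ± 0.529 and 2.45% ± 0.644 in naive mice, with overlap. The means of complex III and V were also higher with AP20187 in both settings, with overlap. The 2 rRNA genes took 0.354% ± 0.0405 and 0.239% ± 0.101 in DMM mice and 0.356% ± 0.150 and 0.198% ± 0.0998 in naive mice, and the 22 tRNA genes together took 0.0125% to 0.0376% of a library, both with overlap.

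The mRNA genes held 95.5% to 98.0% of the mitochondrial counts of a library, the rRNA genes 1.75% to 4.20% and the tRNA genes 0.232% to 0.313%. Complex IV, the last enzyme of electron transfer, took the largest part, 42.6% to 51.3%, and complex I, which takes electrons from NADH, took 25.0% to 33.0%. In naive mice the share of complex IV was 46.6% ± 0.956 with AP20187 (SD, n = 4) and 43.1% ± 0.425 with vehicle (SD, n = 5), without overlap. The share of complex V was 8.58% ± 0.312 against 9.94% ± 0.239 in the same groups, also without overlap. The share of complex I was lower as well, 30.2% with AP20187 and 32.6% with vehicle on average, without overlap. In DMM mice the shares of complexes I, IV and V overlapped between AP20187 and vehicle. The tRNA share did not overlap there, with a mean of 0.246% with AP20187 and 0.267% with vehicle.

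In DMM mice, AP20187 was accompanied by higher counts of 11 of the 37 mitochondrial genes, and none was lower by edgeR's quasi-likelihood test with Benjamini-Hochberg adjustment over all 22778 genes. The 11 make 29.7% of the members, where 11.3% of all tested genes were called higher and 23.8% were called in either direction. The estimated change was above 0 in all 37 members, with a median log2 fold change of 0.67, against 44.7% of all genes and a median of -0.10. These values are descriptions of the list, whose members share precursor transcripts and are not independent. Groups did not overlap for 5 of the 37 (13.5%), against 8.71% of all genes in the higher direction. The called mRNAs were mt-Co1, mt-Co2, mt-Nd5, mt-Cytb, mt-Atp6 and mt-Atp8.

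mt-Co1 had the smallest adjusted p among the mitochondrial genes in this comparison. Its level was 33859, 51842, 42383, 36248 and 54744 CPM in mice 58 to 62 with AP20187. With vehicle it was 28107, 17204, 18969, 27261 and 27838 CPM in mice 32, 33, 34, 63 and 64. Every mouse with AP20187 stood above every mouse with vehicle. The log2 fold change was 0.88 (SE 0.24), with an adjusted p of 0.0149 by edgeR. Against the vehicle mice 63 and 64 alone it was 0.69, with an adjusted p of 0.212.

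The other called mRNAs rose by similar amounts, and their groups overlapped. mt-Nd5, a large proton-pumping subunit of complex I, had a median of 8479 CPM with AP20187 (4993 to 10910) and 4525 CPM with vehicle (4066 to 6177), and changed by 0.77 (SE 0.22, edgeR adjusted p = 0.0194). mt-Cytb had a median of 13360 CPM (9052 to 16427) against 8614 CPM (5854 to 10412), with 0.72 (edgeR adjusted p = 0.0330). mt-Atp8 and mt-Atp6 had log2 fold changes of 0.74 and 0.67 with edgeR adjusted p of 0.0282 and 0.0495, and mt-Co2, the copper-binding subunit that receives electrons from cytochrome c, had 0.68 and 0.0410. mt-Atp6 passed in 6 of 12 alternatives and in 9 of 19 fits without 1 library, with adjusted p up to 0.124 in the latter. mt-Cytb, mt-Co2, mt-Atp8 and mt-Nd5 passed in 9, 9, 10 and 10 of the alternatives. Without 1 library they passed in 14, 11, 14 and 17 fits, with adjusted p up to 0.0863, 0.103, 0.0721 and 0.0560. In each of these 5 mRNAs, mouse 58 was the lowest of the mice with AP20187, and mice 33 and 34 were among the 3 lowest with vehicle.

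The remaining 7 mRNAs did not pass the test in DMM mice. mt-Nd1, mt-Nd2, mt-Nd4, mt-Nd4l and mt-Nd6, all subunits of complex I, had log2 fold changes between 0.59 and 0.70, with adjusted p from 0.0514 to 0.0880. mt-Co3, a structural subunit of complex IV, had 0.56 (adjusted p = 0.0861). mt-Nd3 had 0.43 (adjusted p = 0.430). Its level was 232 and 199 CPM in vehicle mice 63 and 64, and 137, 73.9 and 88.2 CPM in vehicle mice 32 to 34. The AP20187 mice 58 to 62 had 153, 251, 205, 179 and 191 CPM. Against mice 63 and 64 alone its estimate was -0.10. The rRNAs did not pass either. mt-Rnr1 and mt-Rnr2, of the small and the large ribosomal subunit, had 0.58 and 0.62 with adjusted p of 0.252 and 0.196.

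Of the 22 tRNA genes, 5 rose in DMM mice (22.7%, against 11.3% of all genes). mt-Ts1, a serine tRNA with the highest mean count of the class, had 91.9, 123, 96.9, 93.0 and 117 CPM in mice 58 to 62. With vehicle it had 68.3, 41.3, 44.9, 70.9 and 87.4 CPM in mice 32, 33, 34, 63 and 64, and the groups did not overlap. Its log2 fold change was 0.74 (edgeR adjusted p = 0.0293), and it overlaps the end of mt-Co1 on the other strand. The others were mt-Tk (lysine, 1.06), mt-Tl2 (leucine, 1.21), mt-Td (aspartate, 0.97) and mt-Tm (methionine, 0.80), named because they passed and not by the rule set for names. mt-Td passed in 9 of 12 alternatives and in 7 of 19 fits without 1 library, with adjusted p up to 0.117 in the latter. mt-Tl1 (leucine, 0.83), mt-Tp (proline, 0.57) and mt-Te (glutamate, 0.39) did not pass, with adjusted p of 0.0550, 0.102 and 0.292. Over the whole class the estimates ran from 0.20 to 1.21.

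The count of called members in DMM mice varied with the mice included. It was 14 with vehicle mice 32 to 34 as the only vehicle mice, where 17.5% of all genes were called higher. It was 0 with mice 63 and 64 only, where 2.71% of all genes were called higher. In that fit 5 of 37 members (13.5%) had an unadjusted p under 0.05, as had 19.8% of all genes. Leaving out 1 library moved it by more than 1.5 times for 6 libraries: to 3 without mouse 59, 4 without mouse 60, 2 without mouse 62, 2 without vehicle mouse 33, 2 without vehicle mouse 34 and 17 without naive AP20187 mouse 3. In the first 5 of these fits 5.41% to 10.8% of members were called higher, against 8.28% to 10% of all genes. Of these, only the fit without mouse 60 had the higher share among members, 10.8% against 9.96%. In the last fit it was 45.9% of members against 11.7% of all genes. The summed sensory neuron markers were 5850 CPM in vehicle mouse 64 and 13285 to 17256 CPM in the other 4 vehicle mice. The granulocyte markers were 2497 and 7251 CPM in mice 63 and 64 and 367 to 1909 CPM in mice 32 to 34.

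In naive mice, AP20187 was also accompanied by higher counts of 11 of the 37 genes, with none lower. These 11 again make 29.7% of the members, where 8.61% of all tested genes were called higher and 11.2% in either direction. All 37 estimates were above 0, with a median log2 fold change of 0.63, against 46.4% of all genes and a median of -0.07. Groups did not overlap for 12 of the 37 (32.4%), against 9.39% of all genes in the higher direction. The called mRNAs were mt-Nd3, mt-Co3, mt-Co2 and mt-Nd6, and 7 tRNA genes passed. The comparisons in DMM and in naive mice use different vehicle mice, and mt-Co2, mt-Tl2 and mt-Ts1 passed in both, though each lost the call in some alternatives.

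**Figure D2:**
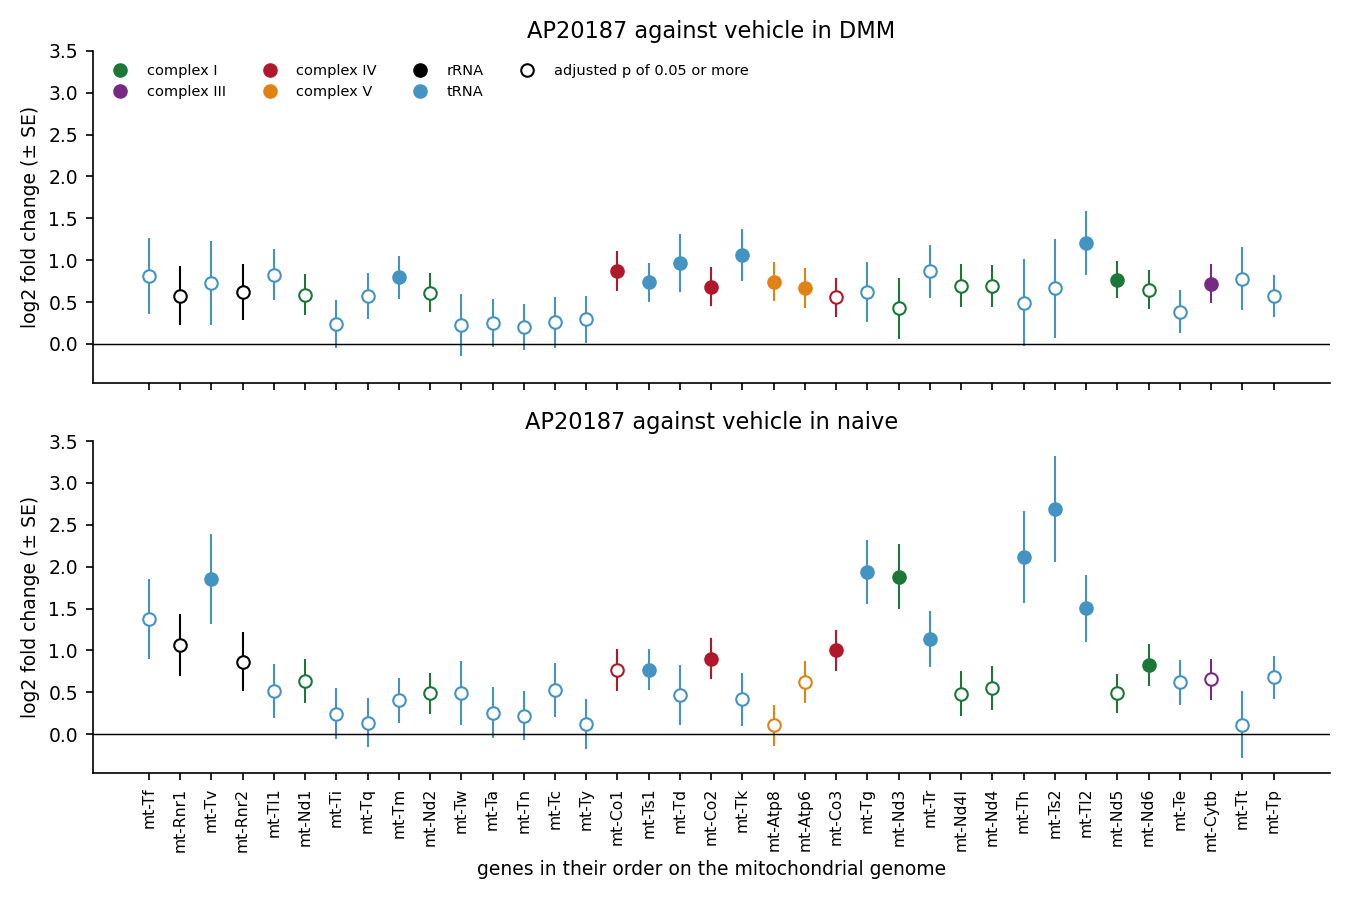
Log2 fold change of AP20187 against vehicle (edgeR, ± SE) for the 37 mitochondrially encoded genes in genome order, in DMM mice (top) and naive mice (bottom). Filled points have an adjusted p under 0.05 and colours give the class. Estimates in DMM mice run from 0.20 to 1.21, and in naive mice mt-Tg, mt-Nd3, mt-Th, mt-Ts2 and mt-Tl2 stand between 1.505 and 2.69.

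mt-Nd3 was the mRNA with the largest change in naive mice. The AP20187 mice 1, 3 and 4 had 559, 698 and 393 CPM, and mouse 5 had 127 CPM. The vehicle mice 1 to 5 had 114, 79.6, 151, 149 and 109 CPM. Mouse 5 lay within the vehicle range, and the other 3 were far above it. The log2 fold change was 1.88 (SE 0.39, edgeR adjusted p = 0.00544), and mt-Nd3 passed under each alternative and without each single library, with adjusted p up to 0.0471. As a share of mitochondrial counts, mt-Nd3 made 0.447%, 0.447% and 0.409% in mice 1, 3 and 4, 0.121% in mouse 5 and 0.152% to 0.174% with vehicle. DMM mice had 0.132% to 0.184% with AP20187 and 0.144% to 0.290% with vehicle, where 2 mice were above every naive mouse with vehicle.

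The complex IV mRNAs mt-Co3 and mt-Co2 and the complex I mRNA mt-Nd6 rose in naive mice with AP20187. mt-Co3 had 7544, 9945, 5385 and 6254 CPM in mice 1, 3, 4 and 5, against 3205, 2693, 4598, 4228 and 3452 CPM with vehicle. Its log2 fold change was 1.00 (SE 0.24, edgeR adjusted p = 0.0145). mt-Co2 had 7490, 9249, 5387 and 4932 CPM with AP20187 and 2574 to 4740 CPM with vehicle, median 3395, and a log2 fold change of 0.90 (edgeR adjusted p = 0.0251). mt-Nd6, the complex I subunit on the minus strand, had 2282, 2779, 1716 and 2108 CPM with AP20187 and 823 to 1580 CPM with vehicle, median 1212, and a log2 fold change of 0.83 (edgeR adjusted p = 0.0378). It passed in 7 of 12 alternatives and in 14 of 19 fits without 1 library, with adjusted p up to 0.141. mt-Co2 passed in 9 and 15 of these, with adjusted p up to 0.196. Groups did not overlap in any of the 3. mt-Co1, mt-Cytb and mt-Nd5 did not overlap between the groups either but missed the threshold, with 0.76, 0.66 and 0.49 and adjusted p of 0.0551, 0.0869 and 0.173.

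mt-Atp8 was the mRNA with the smallest estimate in naive mice, 0.11 (adjusted p = 0.792). Its level was 2675, 3215, 2074 and 2178 CPM with AP20187 and 1666 to 3166 CPM with vehicle, and the groups overlapped. It made 2.06% to 2.16% of mitochondrial counts in the 4 naive mice with AP20187, below the 2.92% to 3.36% of naive mice with vehicle and the 2.88% to 3.18% of DMM mice with AP20187. DMM mice with vehicle had 3.100% to 3.41% in mice 32, 33, 34 and 63 and 2.35% in mouse 64. mt-Atp6, which shares its mRNA, had 0.63 (adjusted p = 0.112) and did not pass. The log2 fold change of mt-Atp8 in DMM mice less that in naive mice was 0.64 (interaction, adjusted p = 0.712).

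**Figure D3:**
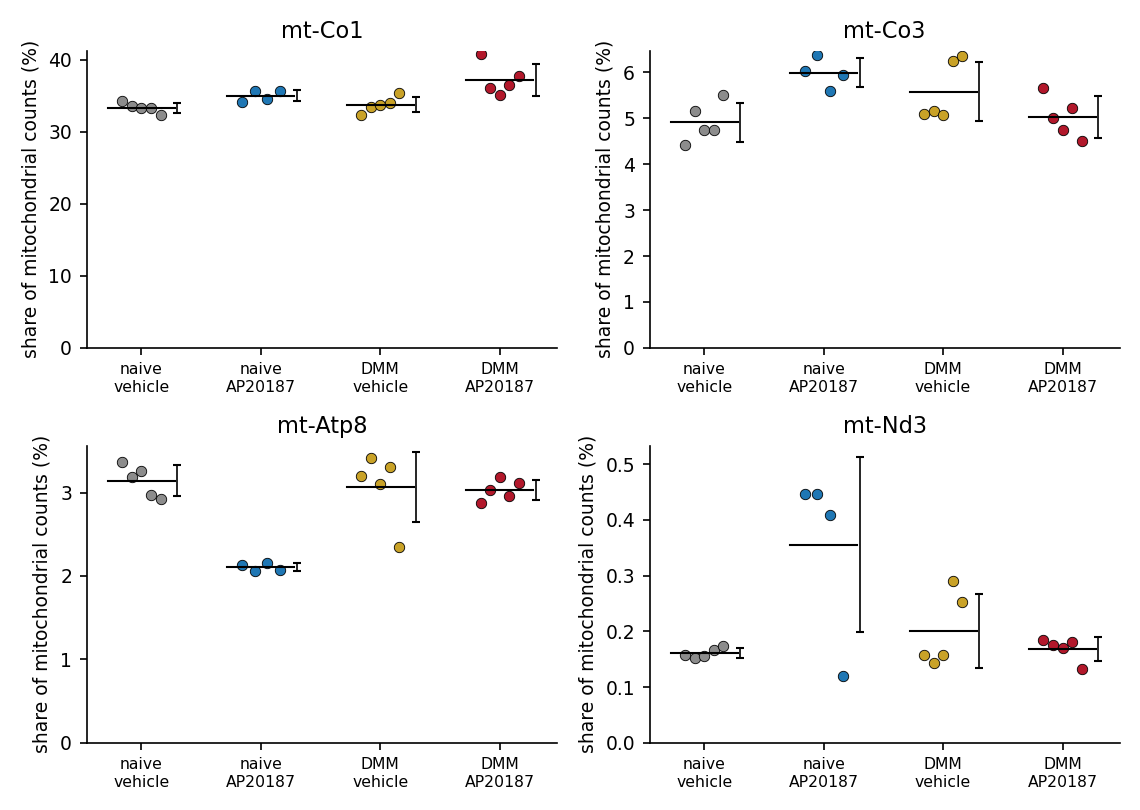
Share of the mitochondrial counts (%) held by mt-Co1, mt-Co3, mt-Atp8 and mt-Nd3 in each mouse, with the group mean (line) and SD (bar). For mt-Atp8 the 4 naive mice with AP20187 lie at 2.06% to 2.16%, and for mt-Nd3 mouse 5 of that group lies at 0.121%, apart from the other 3.

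The other complex I mRNAs and the rRNAs did not pass in naive mice. mt-Nd1, mt-Nd2, mt-Nd4 and mt-Nd4l had log2 fold changes of 0.63, 0.49, 0.56 and 0.48, with adjusted p between 0.117 and 0.237. mt-Rnr1 had 1291, 2313, 984 and 898 CPM with AP20187 and 531, 319, 852, 1116 and 463 CPM with vehicle, with 1.06 (adjusted p = 0.0707). mt-Rnr2 had 0.87 (adjusted p = 0.119). In both rRNAs AP20187 mouse 3 was the highest, and vehicle mouse 4 lay within the AP20187 range.

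The largest changes in naive mice were in tRNA genes of low count. mt-Ts2 had 84, 90, 37 and 45 counts in AP20187 mice 1, 3, 4 and 5 and 6, 8, 23, 13 and 7 counts in vehicle mice 1 to 5. Its log2 fold change was 2.69 (SE 0.63, edgeR adjusted p = 0.0117). mt-Th, directly before it, had 91, 119, 55 and 48 counts against 10, 14, 34, 31 and 14, with 2.12 (edgeR adjusted p = 0.0206). mt-Tl2, directly after it, had 97, 123, 54 and 69 counts against 24, 18, 54, 53 and 23, with 1.505 (edgeR adjusted p = 0.0227). The 3 genes of this run thus rose together, and in CPM the groups did not overlap in any of them. mt-Ts2, mt-Th and mt-Tl2 passed in 11, 10 and 9 of 12 alternatives. Without 1 library they passed in 19, 15 and 15 of 19 fits. Their adjusted p reached 0.0508, 0.0819 and 0.117 over all of these.

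mt-Tg, the neighbour of mt-Nd3, had 232, 286, 151 and 122 counts in AP20187 mice 1, 3, 4 and 5 and 47, 32, 86, 68 and 64 in vehicle mice. Its log2 fold change was 1.94 (SE 0.38), and its edgeR adjusted p of 0.00405 was the smallest of all members in this comparison. Unlike in mt-Nd3, mouse 5 stood above every vehicle mouse. mt-Tr (arginine), on the other side of mt-Nd3, had 1.14 (edgeR adjusted p = 0.0351). It passed in 9 of 12 alternatives and in 14 of 19 fits without 1 library, with adjusted p up to 0.117. mt-Tv (valine), between the rRNA genes, had 1.85 (edgeR adjusted p = 0.0334) from 4 to 39 counts per library, and it passed in 8 of 12 alternatives and in 13 of 19 fits without 1 library, with adjusted p up to 0.159. mt-Ts1 had 0.77 (edgeR adjusted p = 0.0481). It passed in 6 of 12 alternatives and in 7 of 19 fits without 1 library, with adjusted p up to 0.167. mt-Te, mt-Tl1 and mt-Tp had 0.62, 0.52 and 0.68, with adjusted p of 0.134, 0.286 and 0.0988. The tRNA genes named here other than mt-Ts1, mt-Te, mt-Tl1 and mt-Tp were chosen after their values were seen.

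**Figure D4:**
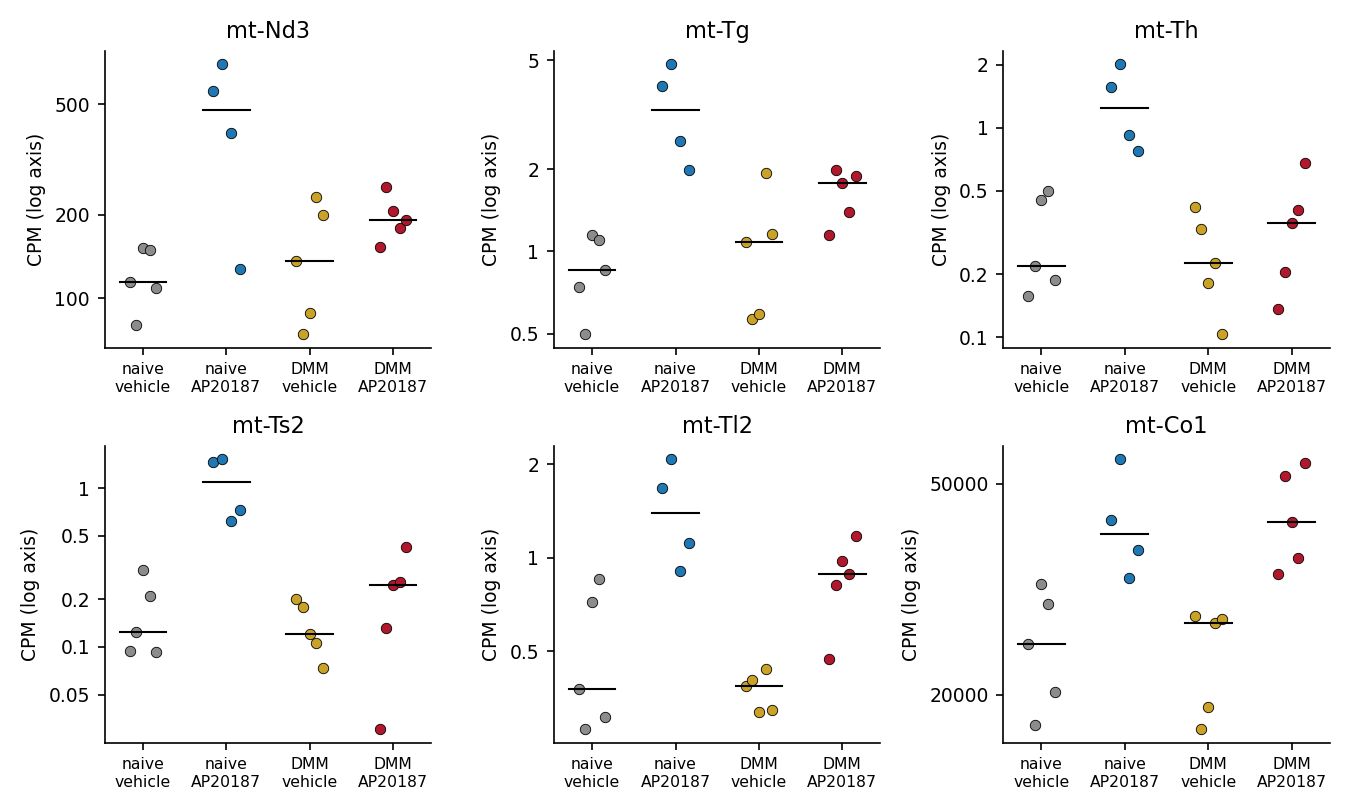
Level in CPM (log axis) of mt-Nd3, of the tRNA genes mt-Tg, mt-Th, mt-Ts2 and mt-Tl2 and of mt-Co1 by group. Each point is 1 mouse and the line is the group median. In the 4 tRNA panels all 4 naive mice with AP20187 lie above all naive mice with vehicle, while for mt-Nd3 mouse 5 lies at 127 CPM, within the vehicle range.

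Leaving out 1 library moved the count in naive mice by more than 1.5 times for 5 libraries. It was 4 without AP20187 mouse 1, 3 without AP20187 mouse 3, 4 without vehicle mouse 1, 4 without vehicle mouse 2 and 7 without vehicle mouse 5. The share of all genes called higher was 3.61% to 5.83% in these fits. RNAs that lack a poly(A) tail were high in 3 of the naive mice with AP20187. The summed level of 4 such RNAs was 12.95, 57.6 and 8.32 CPM in AP20187 mice 1, 3 and 4, 1.65 CPM in mouse 5 and 0.342 to 3.58 CPM with vehicle. Rn7sk, a regulator of transcription elongation, and Rpph1, the RNA of nuclear RNase P, rose by 3.35 and 4.43 (edgeR adjusted p = 0.0182 and 0.0388). Their part in the tRNA and mt-Nd3 levels was not tested.

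No mitochondrial gene passed in the comparison of DMM with naive mice. With vehicle, 0 of 37 passed edgeR's test, where 0.0% of all genes passed, and 0 of 37 had an unadjusted p under 0.05, as had 1.66% of all genes. DESeq2 and both limma fits also called 0. The estimates had a median of -0.10 and 11 of 37 were above 0. With AP20187, 0 of 37 passed, where 0.702% of all genes passed. Here 4 members had an unadjusted p under 0.05, as had 16.7% of all genes. DESeq2, limma with sample weights and limma on FPKM each called 2 members, all lower in DMM mice. Limma on FPKM called 1220 of the 22778 genes here, a share close to that of the members. The shares of all genes with DESeq2 and with sample weights are not given here.

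The genes furthest apart between DMM and naive mice with AP20187 were those high in the naive group. mt-Ts2 had 2, 9, 16, 17 and 25 counts in DMM mice 58 to 62, below all 4 naive mice, with a log2 fold change of -2.31 (edgeR adjusted p = 0.0818). mt-Th had -1.89 (adjusted p = 0.105), and its groups did not overlap either. These 2 were the only members without overlap in this comparison, where 2.44% of all genes were lower without overlap. mt-Nd3 had -1.18 (adjusted p = 0.142), and passed without naive mouse 5, with -1.501 and an adjusted p of 0.0307.

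The test of whether the AP20187 effect differed between DMM and naive mice gave 0 of 37 calls by edgeR, DESeq2 and limma, where 0.114% of all genes passed in edgeR. By edgeR 4 of 37 had an unadjusted p under 0.05, as had 7.67% of all genes. mt-Ts2 had the lowest estimate, -2.02 (adjusted p = 0.575), and mt-Nd3 had -1.46 (adjusted p = 0.473). Genes that passed in DMM or in naive mice alone are thus not shown to differ in their response.

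Nuclear genes for the same enzymes were counted over a list of 78 subunits, all of them tested. In DMM mice edgeR called 0 of 78 higher and 5 lower (6.41%), where 12.4% of all tested genes were called lower. Of the 78, 11 had an unadjusted p under 0.05, as had 37.3% of all genes. DESeq2 called 0 higher and 8 lower, where 8.96% and 10.2% of all genes were called higher and lower. Limma on FPKM called 0 and 7, against 12.7% and 14.2% of all genes. Limma with sample weights called 21 and 7, against 21.9% and 25.0%. The median log2 fold change of the 78 was -0.08, against -0.10 over all genes. Ndufv1, the NADH-binding subunit of complex I, fell by 0.68 (edgeR adjusted p = 0.0126), Ndufa10 by 0.62 (edgeR adjusted p = 0.0228) and Atp5d, a subunit of ATP synthase, by 0.47 (edgeR adjusted p = 0.0321). In naive mice 16 of 78 rose (20.5%) and 1 fell (1.28%) by edgeR, where 8.61% of all genes were called higher and 2.57% lower. Their median was 0.56, against -0.07 over all genes. Limma on FPKM called 9 higher and 8 lower there, where 7.13% of all genes were called higher and 11.1% lower.

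The nuclear subunits with the smallest p in naive mice were Atp5k, Atp5mpl and Ndufb1, small subunits of ATP synthase and of complex I. Ndufb1 had 67.8, 104 and 42.6 CPM in AP20187 mice 1, 3 and 4, 7.10 CPM in mouse 5 and 4.14 to 9.49 CPM with vehicle, with a log2 fold change of 3.02 (edgeR adjusted p = 0.00193). Atp5mpl had 181, 317 and 124 CPM in mice 1, 3 and 4 and 35.2 CPM in mouse 5, against 15.1 to 33.8 CPM, with 2.63 (edgeR adjusted p = 0.00144). Atp5k had 2.84 (edgeR adjusted p = 0.000904). As with mt-Nd3, mice 1, 3 and 4 were high and mouse 5 was near the vehicle mice. With AP20187, Atp5k and Atp5mpl were lower in DMM than in naive mice, by -2.13 and -1.97 (edgeR adjusted p = 0.0306 and 0.0441).

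Genes that make and process mitochondrial RNA were counted over a list of 30. In DMM mice 1 rose (3.33%) and 4 fell (13.3%), against 11.3% and 12.4% of all genes. Lrpprc, which binds and stabilises mitochondrial mRNAs, had 33.0, 41.5, 42.2, 57.7 and 55.7 CPM in mice 58 to 62, against 95.6, 104, 95.7, 72.6 and 41.3 CPM in mice 32, 33, 34, 63 and 64. It fell by 0.83 (SE 0.26, edgeR adjusted p = 0.0310), and vehicle mouse 64 lay among the AP20187 mice. Grsf1, an RNA-binding protein of mitochondrial RNA granules, fell by 0.55 (edgeR adjusted p = 0.0179) and Rexo2, an oligoribonuclease, by 0.51 (edgeR adjusted p = 0.0203).

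In naive mice 1 of the 30 rose and 0 fell, against 8.61% and 2.57% of all genes. This was Slirp, the partner of Lrpprc, with 36.5, 51.0 and 25.0 CPM in AP20187 mice 1, 3 and 4, 7.47 CPM in mouse 5 and 2.66 to 8.42 CPM with vehicle, and its log2 fold change was 2.54 (edgeR adjusted p = 0.00228). Lrpprc had -0.45 (adjusted p = 0.294). Polrmt, the mitochondrial RNA polymerase, had -0.26 in DMM and -0.41 in naive mice, with adjusted p of 0.188 and 0.0803. Tfam, which packs mitochondrial DNA and starts its transcription, had 0.01 and 0.18, with adjusted p of 0.980 and 0.362.

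**Figure D5:**
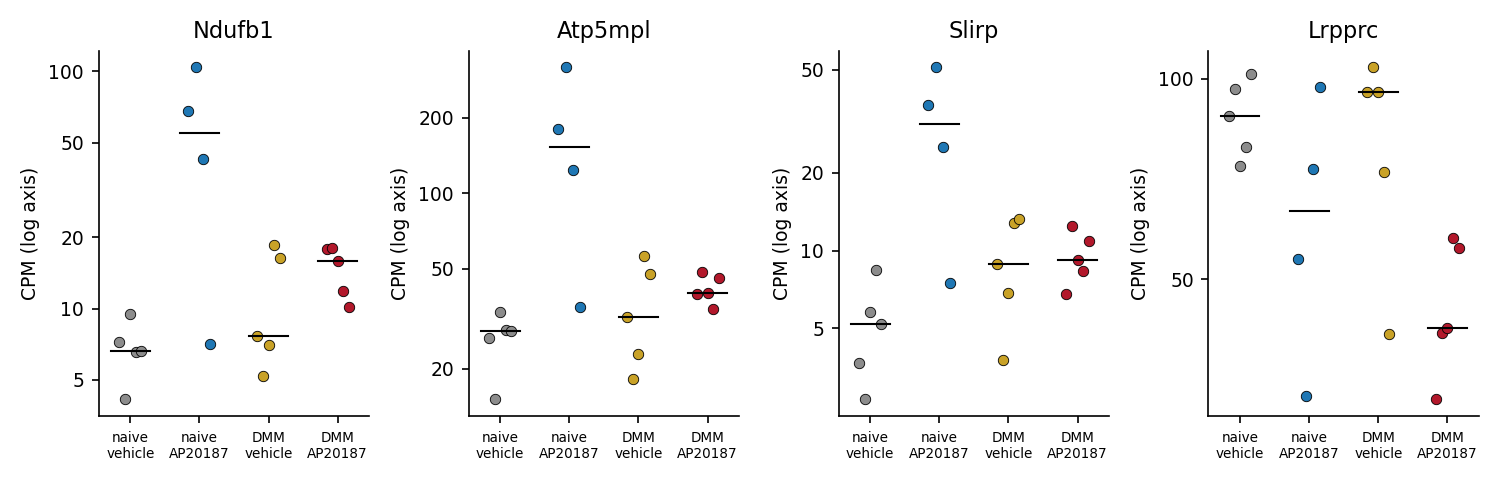
Level in CPM (log axis) of the nuclear genes Ndufb1, Atp5mpl, Slirp and Lrpprc by group, with 1 point per mouse and the group median as a line. In the first 3 panels naive AP20187 mice 1, 3 and 4 lie above all other mice and mouse 5 lies at 7.10, 35.2 and 7.47 CPM.

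Of 12 genes that maintain mitochondrial DNA, 1 rose and 1 fell in DMM mice (8.33% each, against 11.3% and 12.4% of all genes). Polg, the catalytic subunit of the mitochondrial DNA polymerase, had 81.1, 64.4, 65.0, 65.1 and 90.02 CPM with AP20187 and 37.7, 44.9, 48.4, 44.3 and 55.7 CPM with vehicle, without overlap. Its log2 fold change was 0.66 (edgeR adjusted p = 0.00209), and Rrm2b, a ribonucleotide reductase subunit, fell by 0.56 (edgeR adjusted p = 0.0316). Of 7 regulators of mitochondrial biogenesis, Gabpa and Nrf1 rose in DMM mice, by 0.64 and 0.65 (edgeR adjusted p = 0.00507 and 0.0192). Ppargc1a, a coactivator of the genes for mitochondria, had -0.61 in DMM and -0.54 in naive mice, with adjusted p of 0.135 and 0.262. In naive mice 0 of the 12 maintenance genes and 0 of the 7 regulators passed edgeR's test, where 8.61% of all genes were called higher and 2.57% lower. In each list 2 genes had an unadjusted p under 0.05, as had 28.8% of all genes. Of the maintenance genes DESeq2 called 1, limma on FPKM 2 and limma with sample weights 1, all lower. Of the regulators limma on FPKM called 1 lower and the others 0. Of all genes, 4.37% were called lower with DESeq2, 11.1% with limma on FPKM and 6.23% with sample weights.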

How the data were processed

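The authors deposited raw counts per gene in 2 tables and, in one of them, FPKM, per the file headers. The submitters' processing notes name cutadapt, HISAT2, StringTie and the build GRCm39, without versions, and how reads with several matches were counted was not given in the sources used here. Counts came from the table with identifiers (36682 genes), and the 37 members had equal counts in the other table. There, 6448 entries without a gene name held 0.414% to 1.72% of a library's counts. In the table used every entry has a name and identifier, and library totals were equal to those of the other table in 18 of 19 libraries and 1 count apart in the other, so those counts stayed in the library sizes. The test was edgeR's (version 4.0.16, under R 4.3.3; quasi-likelihood F test, TMM, filterByExpr with a minimum count of 10), in 1 fit of the 4 groups with 15 residual degrees of freedom and 5 contrasts. Tests were two-sided, with Benjamini-Hochberg adjustment over all 22778 genes and a threshold of 0.05. The mice are separate animals per the labels, and no batch is named. The model was run on simulated data with known changes, of which it missed most 2-fold ones. Figures were drawn with matplotlib 3.10.9. Named genes were the 13 mRNAs, both rRNAs, the 4 tRNAs of highest mean CPM and, of the nuclear lists, the 3 called genes of smallest p per comparison with Polrmt, Tfam, Lrpprc and Ppargc1a. The members and lists were chosen with earlier results of these data known. Alternatives were another scaling, DESeq2 1.42.0, limma 3.58.1 (on counts with sample weights, and on log2 of FPKM + 1), no filter, fewer groups or mice, a replicate block and, added after the data were seen, ways to treat the chromosome 1 copy and the naive mice without a block.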

Additional observations from a re-analysis of the deposited data

Results flagged for a closer look

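In 192 checks of a group for a mouse far from the rest, over named members and shares, 3 mice stood apart by Dixon's rule, and chance alone gives about 1 in 20. The share of mitochondrial counts in mt-Nd3 was 0.121% in mouse 5 of the naive mice with AP20187, and the next lowest of the group was 0.409%. It was 0.132% in mouse 62 of the DMM mice with AP20187, where the next lowest was 0.170%. The share of complex V in mitochondrial counts was 9.17% in mouse 58 of the DMM mice with AP20187, where the next lowest was 9.63%.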

How the results depend on the processing

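All 37 estimates stayed above 0 under each rescaling in both comparisons of AP20187 with vehicle, except that limma on FPKM gave 34 of 37 in naive mice. The count of called members, 11 in DMM mice, was 19 with DESeq2, 17 with DESeq2's size factors, 17 with chromosome MT and the chromosome 1 copy left out of the scaling (an alternative added after the data were seen), 5 with limma on FPKM, 28 with limma and sample weights, 5 without the filter and 0 against vehicle mice 63 and 64. The share of all genes called higher was 8.96% with DESeq2, 12.1% with its size factors, 12.6% with chromosome MT and the copy left out, 21.9% with sample weights and 5.78% without the filter. With limma on FPKM the 5 of 37 (13.5%) were near the 12.7% of all genes, and 32.4% of members had an unadjusted p under 0.05, as had 40.4% of all genes. The count in naive mice was 7 without the filter, where 4.02% of all genes were called higher. With single libraries left out it ranged from 2 to 17 in DMM mice, from 3 to 14 in naive mice and from 0 to 1 for DMM against naive with AP20187. That last count was 2 with DESeq2, 2 with limma on FPKM and 2 with limma and sample weights. Limma on FPKM called 1220 of the 22778 genes in that comparison, a share close to that of the members. The difference in share in DMM mice was 7.71 points of summed FPKM. mt-Nd3 in DMM mice reversed to -0.10 against mice 63 and 64, and mt-Atp8 in naive mice to -0.057 with limma on FPKM. With single libraries left out the latter ranged from -0.029, without AP20187 mouse 3, to 0.24. The cause was not tested. Differences in share with single libraries left out ranged from 3.86 to 5.33 points in DMM and from 2.84 to 4.63 in naive mice, from -0.91 to 0.32 for DMM against naive with vehicle and from -0.36 to 1.46 with AP20187. The replicate block over naive numbers 1, 3, 4 and 5 gave 3 calls and a difference in share of 3.31 points. The 3 of 37 (8.11%) were near the 8.38% of all genes called higher under the block. The same 8 mice without a block also gave 3 calls, where 5.91% of all genes were called higher. The numbers do not pair mice by the labels, and same-numbered mice correlated at 0.0147, 0.313, -0.052 and 0.279. Of all called genes in naive mice, 77.002% were higher, against 62.9% without TMM and 39.2% with limma on FPKM. tRNA genes with under 100 counts per library are the least precise members.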
